A study of Homo sapiens with 6 samples.

Results

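The transcripts of the mitochondrial genome were followed in parental ZR-75-1 cells, a line from an oestrogen receptor-positive breast carcinoma, after CDK4/6 inhibition. Their members are all rows of the deposited count table whose Ensembl identifier maps to a symbol that starts with MT-, which gave 37 of 60656 genes: 13 mRNAs, 2 rRNAs and 22 tRNAs. The cells were grown for 4 days with 500 nM abemaciclib, a CDK4/6 inhibitor, or with an equal volume of DMSO, and each group had 3 libraries. The groups were otherwise alike in their labels, with no engineered allele in either, and the cells of one line were used throughout. The replicates were independent cultures per the study's legends, so that p-values measure the spread between cultures of this line.

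Mitochondrial DNA is a small circle that is transcribed from both strands into long precursors. Heavy-strand transcription starts in the control region just ahead of MT-TF and gives both rRNAs, 12 mRNAs and 14 tRNAs, which the reference lists on its plus strand. Light-strand transcription gives MT-ND6 and 8 tRNAs, which are listed on the minus strand. tRNAs punctuate the precursors and are cut out, and most of the released mRNAs then receive short poly(A) tails, with MT-ND6 a known exception in many cells. The mRNAs encode subunits of respiratory complexes I, III, IV and V, and the rRNAs and tRNAs build the organelle's own translation machinery.

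The sequences of the genes that changed are given from chrM of hg38, which is 16569 bases long, each from 5′ to 3′ on the strand of the gene. For the tRNAs, capitals mark the longest run of A (the first where several are equally long), since the library kit primes on poly(A). The first pair rose with abemaciclib and lies on the plus strand.
MT-TF, chrM:577-647: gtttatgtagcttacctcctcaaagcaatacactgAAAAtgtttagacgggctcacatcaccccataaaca
MT-TD, chrM:7518-7585: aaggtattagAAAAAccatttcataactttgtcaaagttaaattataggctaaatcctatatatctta
The other 5 fell and lie on the minus strand.
MT-TQ, chrM:4329-4400: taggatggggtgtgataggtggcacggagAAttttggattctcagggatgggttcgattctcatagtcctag
MT-TC, chrM:5761-5826: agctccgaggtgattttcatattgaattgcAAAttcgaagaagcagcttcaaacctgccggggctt
MT-TY, chrM:5826-5891: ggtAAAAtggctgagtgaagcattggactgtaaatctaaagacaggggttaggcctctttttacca
MT-TS1, chrM:7446-7514: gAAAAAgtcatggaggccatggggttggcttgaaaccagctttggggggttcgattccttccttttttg
MT-TP, chrM:15956-16023: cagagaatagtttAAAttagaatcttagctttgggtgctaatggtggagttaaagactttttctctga

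For the 4 mRNAs that changed, the last 24 bases of the annotated gene are given, with the bases of the terminal codon that the gene itself encodes in capitals. Of the 13 mRNAs, 6 end in an incomplete codon that the poly(A) tail completes, MT-ND1 and MT-CYB among them.
MT-ND1, chrM:3307-4262, plus strand: ctccagcattccccctcaaaccTA
MT-CO1, chrM:5904-7445, plus strand: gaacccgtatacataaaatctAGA
MT-CYB, chrM:14747-15887, plus strand: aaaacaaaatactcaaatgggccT
MT-ND6, chrM:14149-14673, minus strand: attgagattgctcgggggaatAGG
The share of A was lower in the 9 minus-strand genes (18.8% to 30.3%, median 21.9%) than in most of the 28 plus-strand genes (26.8% to 41.5%, median 33.2%). The 60 bases of the control region directly before MT-TF, on the side of the heavy-strand promoters, are shown because MT-TF gave the firmest rise.
chrM:517-576: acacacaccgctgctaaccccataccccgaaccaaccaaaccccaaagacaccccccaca

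The libraries held 3317860 to 4013156 counts, and a count of 0 allowed a level of up to 0.740 to 0.909 CPM (the CPM of 3 counts after scaling, a limit that covers counting error only). MT-RNR2 was the row with the most counts in every library. All 8 luminal epithelial markers (ESR1, GATA3, FOXA1, KRT8, KRT18, KRT19, EPCAM and CDH1) were detected in every library, at a summed 7478 to 9512 CPM. Of 10 markers of immune, stromal, endothelial, mesenchymal and basal cells, 7 were at 0 in every library (PTPRC, CD3E, COL1A2, PECAM1, VIM, KRT5 and KRT14), and all 10 summed to 10.1 to 16.1 CPM, most of it COL1A1. MKI67, the proliferation marker, fell from 525.8 ± 31.4 to 5.00 ± 2.28 CPM (SD, n = 3). Abemaciclib replicate 3 stood apart from the other 2 libraries of its group: the chi-square of its counts against theirs was 6.82 and 7.27 per degree of freedom, against 3.44 between those 2 and 2.82 to 4.16 between DMSO libraries. Results that rest on it are therefore given with and without it.

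Most of the tested genes annotated on the minus strand fell with abemaciclib, and most of those on the plus strand did not pass the test. Of the 37 genes, 29 had enough counts for a test, and 4 were higher (MT-TF, MT-ND1, MT-CO1 and MT-TD) and 7 were lower (MT-ND6, MT-CYB, MT-TC, MT-TS1, MT-TP, MT-TY and MT-TQ) past the threshold of 0.05 on p-values from edgeR adjusted over the whole table. These were 13.8% and 24.1% of the members tested, where 12.5% of all genes tested were higher and 13.3% lower, 25.7% in all. Below, a log2 change is the fitted log2 of abemaciclib over DMSO, given with its standard error (s.e.), and every adjusted p without another name is from that edgeR fit. Of the 7 minus-strand genes tested, 6 were lower and 0 higher (0 higher also at an unadjusted p under 0.05 and with DESeq2), with a median log2 fold change of −1.05, beside −0.00 over all genes tested. Of the 22 plus-strand genes tested, 4 were higher and 1 lower, with a median of −0.04. Grouping by strand was chosen after the values were seen. Without abemaciclib replicate 3, 2 members were higher and 11 lower, and 5 of the minus-strand genes were among the latter. In that fit, 1412 of all 11218 genes tested were higher and 1529 lower. MT-TQ, MT-TA and MT-TI reached the filter in 1 group or neither, so that their place among the genes tested is not independent of their values.

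**Figure D1:**
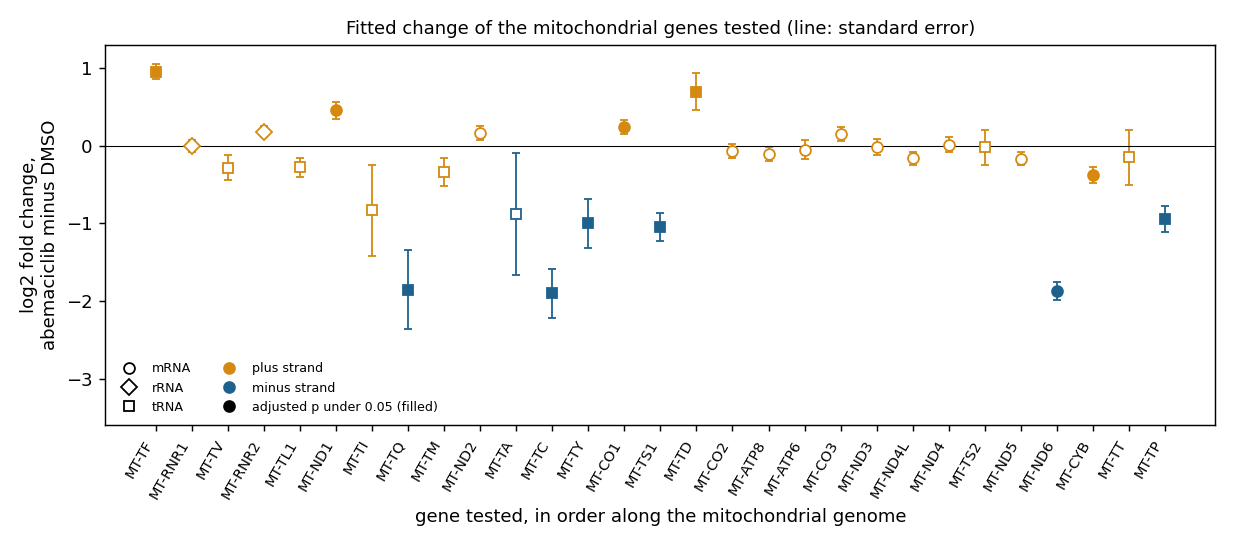
Log2 fold change of abemaciclib over DMSO (y axis) for the 29 mitochondrial genes tested, in genome order (x axis), with lines for the standard error and filled symbols for an adjusted p under 0.05. The minus-strand genes lie between −1.90 and −0.88, under every plus-strand gene, of which MT-TI (−0.83) is the nearest, and MT-TF at the left end is the highest.

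MT-ND6, the only mRNA of the minus strand, encodes a membrane subunit of complex I. It was at 299, 335 and 265 CPM in the DMSO libraries and at 96.5, 74.0 and 75.9 CPM with abemaciclib. The groups did not overlap (among all genes tested, 39.1% did not, 19.1% with abemaciclib above and 20.1% with it below), and the highest abemaciclib library was far under the lowest DMSO library. MT-ND6 fell 3.66-fold, with a log2 change of −1.87 ± 0.12 (s.e., adjusted p = 7.05e-13). The call held in all 13 alternative fits, with log2 changes from −2.00 to −1.78, and of −1.82 without abemaciclib replicate 3. Against MT-ND5, the plus-strand complex I gene whose end abuts that of MT-ND6 on the opposite strand, MT-ND6 had a ratio of counts of 0.0898, 0.103 and 0.0781 in the DMSO libraries and 0.0316, 0.0272 and 0.0243 with abemaciclib. This ratio does not depend on how the libraries are scaled.

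The minus-strand tRNAs had 0 to 327 counts in a library, where MT-ND6 had 281 to 1128, and 5 of the 6 tested fell as well. MT-TC, which carries cysteine, was at 20.9, 21.4 and 23.0 CPM with DMSO and at 9.98, 3.45 and 4.32 CPM with abemaciclib, a log2 change of −1.90 ± 0.32 (s.e., adjusted p = 3.99e-05). MT-TS1, one of the pair of serine tRNAs, was at 48.4, 72.8 and 61.5 CPM with DMSO and at 27.2, 35.8 and 25.1 CPM with abemaciclib, a log2 change of −1.05 ± 0.18 (s.e., adjusted p = 5.10e-05). MT-TP, the proline tRNA that closes the gene array beside the control region, was at 94.8, 82.3 and 85.1 CPM with DMSO and at 46.9, 58.7 and 30.3 CPM with abemaciclib, a log2 change of −0.94 ± 0.17 (s.e., adjusted p = 8.91e-05). In each of the 3, every abemaciclib library was under every DMSO library, and without abemaciclib replicate 3 the log2 changes were −1.73, −0.94 and −0.72. MT-TY, the tyrosine tRNA, fell by 1.00 ± 0.32 on the log2 scale (s.e., adjusted p = 0.0191), from 13.3, 12.5 and 16.4 CPM to 9.08, 6.91 and 5.13 CPM, and its call was lost with DESeq2 (adjusted p = 0.0573) and without DMSO replicate 3 (0.0866) or abemaciclib replicate 3 (0.0737). MT-TQ, the glutamine tRNA, had 51, 43 and 26 counts with DMSO and 2, 6 and 28 with abemaciclib, so that replicate 3 of the 2 groups were nearly level, at 7.88 and 7.57 CPM. Its log2 change was −1.86 ± 0.51 (s.e., adjusted p = 0.00695), and −3.41 without abemaciclib replicate 3. MT-TA, the alanine tRNA, did not pass the test (log2 fold change −0.88, standard error 0.78, at most 13 counts in a library), and MT-TE and MT-TN, the glutamate and asparagine tRNAs, had too few counts for a test, with at most 11 and 1 counts in a library.

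**Figure D2:**
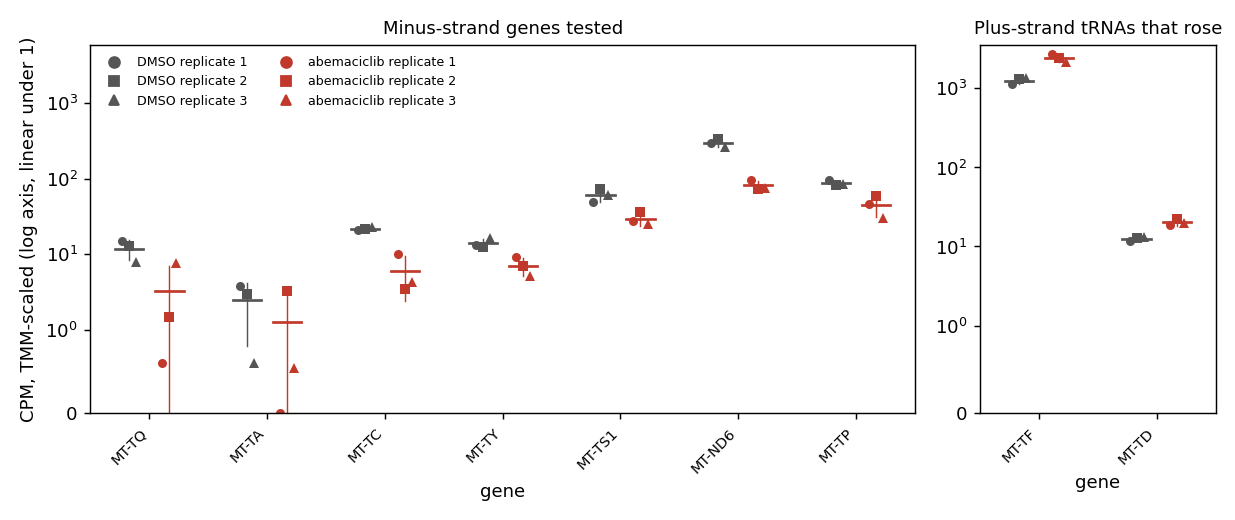
CPM in each library (y axis, logarithmic and linear under 1) of the 7 minus-strand genes tested and of MT-TF and MT-TD (x axis), with bars for the mean and lines for the SD, clipped at 0 (n = 3). Grey DMSO symbols sit above red abemaciclib symbols for all minus-strand genes but MT-TA, where they overlap, and under them for the pair of plus-strand tRNAs.

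Summed, the 9 minus-strand genes held 1718, 1824 and 1518 counts in the DMSO libraries and 633, 745 and 554 with abemaciclib. Their log2 ratio to the plus-strand mRNAs and tRNAs was −7.17 ± 0.14 with DMSO and −8.70 ± 0.39 with abemaciclib (SD, n = 3), a difference of −1.53 (−1.31 without abemaciclib replicate 3), and the groups did not overlap. Without MT-ND6, which held more than any other of the 9, the difference was −1.14. Among tRNAs alone, leaving out MT-TF, the log2 ratio of minus-strand to plus-strand counts was −1.31 ± 0.19 with DMSO and −2.20 ± 0.09 with abemaciclib (SD, n = 3), again without overlap. Whether reads were counted by strand is not given in the sources used here, so that reads from one strand and reads from its antisense partner at these positions cannot be told apart. In bulk libraries, fewer cells with a transcript and less of it per cell cannot be told apart either. The kit primes on poly(A), which a mature tRNA lacks and which MT-ND6 lacks in many cells. How well the kit captured these RNAs was not measured, so that the falls are falls in counts and not in RNA amounts.

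MT-TF, the phenylalanine tRNA and the first gene after the heavy-strand promoters, rose. It was at 1128, 1297 and 1349 CPM in the DMSO libraries and at 2727, 2403 and 2175 CPM with abemaciclib, with no overlap. The rise was 1.94-fold, a log2 change of 0.95 ± 0.09 (s.e., adjusted p = 6.36e-09), and all 13 alternative fits kept the call, with log2 changes from 0.87 to 1.03, the last of them without abemaciclib replicate 3. MT-TF took 64.2% ± 0.9 of the counts on mitochondrial tRNAs with DMSO and 82.5% ± 2.4 with abemaciclib (SD, n = 3). Its neighbour MT-RNR1, which starts at the next base, showed no such change: the ratio of MT-TF to MT-RNR1 counts was 0.0728, 0.0891 and 0.0837 with DMSO and 0.174, 0.157 and 0.146 with abemaciclib. A mature tRNA has no poly(A) tail, and the table does not say which RNA the reads on these 71 bases came from.

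The other plus-strand tRNAs were counted less. MT-TD, the aspartate tRNA between MT-CO1 and MT-CO2, was at 11.9, 12.8 and 13 CPM with DMSO and at 18.5, 22.5 and 20 CPM with abemaciclib, a log2 change of 0.69 ± 0.24 (s.e., adjusted p = 0.0320). The groups did not overlap, but the call was lost in 8 of 13 alternative fits, with adjusted p-values up to 0.113. MT-TL1, MT-TM, MT-TV, MT-TT, MT-TS2 and MT-TI (the leucine, methionine, valine, threonine, second serine and isoleucine tRNAs) did not pass the test, with log2 fold changes from −0.83 for MT-TI to −0.02 for MT-TS2. MT-TM passed without abemaciclib replicate 2 (−0.68, adjusted p = 0.00894), and MT-TL1 passed without abemaciclib replicate 1 (−0.38, adjusted p = 0.0335). MT-TI had 17, 14 and 23 counts with DMSO and 4, 3 and 26 with abemaciclib, and its log2 fold change without abemaciclib replicate 3 was −2.44 (adjusted p = 0.00857). Of the 6 plus-strand tRNAs with too few counts for a test, MT-TK had 0 counts in every library. MT-TW, the tryptophan tRNA, had 0 counts in the 3 DMSO libraries and 7, 2 and 3 with abemaciclib, and MT-TG, MT-TR, MT-TH and MT-TL2 had at most 9 counts in a library.

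The 2 rRNAs, which form the cores of the small and the large mitochondrial ribosomal subunit, lie on one precursor with MT-TV between them. MT-RNR1 (12S rRNA) was at 15497, 14567 and 16126 CPM with DMSO and at 15708, 15337 and 14915 CPM with abemaciclib. The ranges of the groups overlapped almost fully, with a log2 change of −0.01 ± 0.08 (s.e., adjusted p = 0.961), which was positive with DESeq2 and without DMSO replicate 3 or abemaciclib replicate 3. MT-RNR2 (16S rRNA) was at 73793, 68797 and 76173 CPM with DMSO and at 80625, 78358 and 88685 CPM with abemaciclib. Its groups did not overlap, but its log2 change of 0.18 ± 0.07 (s.e., adjusted p = 0.0681) did not pass the threshold; it passed with no filter on low counts (adjusted p = 0.0290) and without abemaciclib replicate 2 (0.0351). The ratio of MT-RNR2 to MT-RNR1 counts was 4.76, 4.72 and 4.72 in the DMSO libraries and 5.13, 5.11 and 5.95 with abemaciclib, each abemaciclib library above each DMSO library.

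The 12 plus-strand mRNAs had log2 changes between −0.38 for MT-CYB and 0.45 for MT-ND1. Among the 6 complex I members of this strand, MT-ND1 was at 1943, 1796 and 1640 CPM with DMSO and at 2280, 1999 and 3084 CPM with abemaciclib, a log2 change of 0.45 ± 0.11 (s.e., adjusted p = 0.00296). Its groups did not overlap, and its call was lost with DESeq2 (adjusted p = 0.103). Without abemaciclib replicate 3, its highest library, its log2 fold change was 0.26. MT-ND2, MT-ND3, MT-ND4, MT-ND4L and MT-ND5 did not pass the test, with log2 fold changes of 0.16, −0.01, 0.01, −0.17 and −0.17 (standard errors 0.08 to 0.10). MT-ND4L and MT-ND5 were nevertheless lower in every abemaciclib library than in every DMSO library.

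MT-CYB, cytochrome b of complex III and the last mRNA gene of the strand, fell. It was at 3807, 3396 and 3306 CPM with DMSO and at 2530, 2292 and 3251 CPM with abemaciclib, where replicate 3 lay just under the lowest DMSO library. The log2 change was −0.38 ± 0.10 (s.e., adjusted p = 0.00554), and the call was lost without DMSO replicate 1 (adjusted p = 0.0566) or without abemaciclib replicate 2 (0.0655). Without abemaciclib replicate 3 the log2 fold change was −0.54.

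Of the complex IV genes, MT-CO1, which encodes the catalytic subunit of cytochrome c oxidase, was at 2908, 2873 and 2732 CPM with DMSO and at 3430, 2913 and 3733 CPM with abemaciclib. Its log2 change of 0.24 ± 0.09 (s.e., adjusted p = 0.0440) was just past the threshold, and 7 of 13 alternative fits, among them the one without abemaciclib replicate 3 (0.16), lost the call. MT-CO2 and MT-CO3, the other mitochondrial core subunits, had log2 fold changes of −0.07 and 0.15 and did not pass the test, though MT-CO3 did without abemaciclib replicate 2 (0.25, adjusted p = 0.0399). The pair of complex V genes, MT-ATP8 and MT-ATP6, are read from one mRNA with 46 bases shared between them. MT-ATP6 was at 8365, 6929 and 6307 CPM with DMSO and at 6184, 5477 and 9125 CPM with abemaciclib, so that abemaciclib replicate 3 was the highest of all 6 libraries and the other 2 the lowest. The log2 fold changes were −0.06 for MT-ATP6 and −0.11 for MT-ATP8, neither past the threshold, and without abemaciclib replicate 3 they were −0.30 (adjusted p = 0.000445) and −0.23 (adjusted p = 0.00662). MT-ND3 and MT-ND5 also passed the threshold without that library, at −0.19 (adjusted p = 0.0187) and −0.20 (adjusted p = 0.0223). Over the 13 mRNAs, 2 were higher and 2 lower, with a median log2 change of −0.06, or −0.17 without abemaciclib replicate 3.

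**Figure D3:**
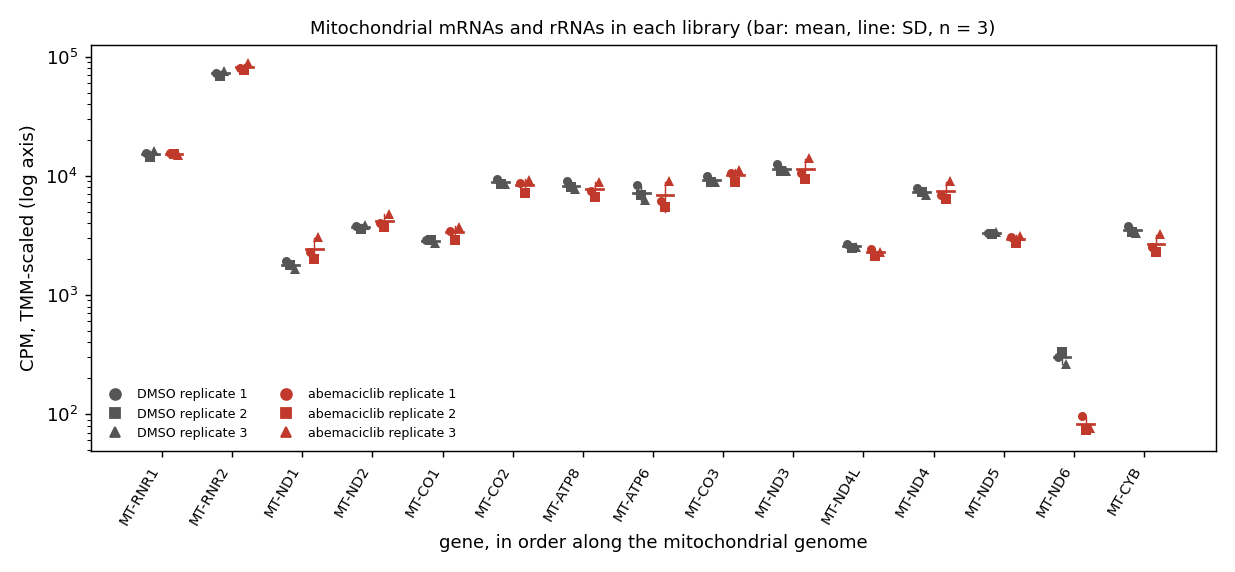
CPM in each library (y axis, logarithmic) of the 2 rRNAs and 13 mRNAs in genome order (x axis), with bars for the mean and lines for the SD (n = 3). The groups overlap in 8 genes, and MT-ND6 shows the widest gap, where abemaciclib libraries, at 74.0 to 96.5 CPM, lie under DMSO libraries, at 265 to 335 CPM.

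The mRNAs were also set against each other as shares of all counts on mitochondrial mRNAs, a measure from which the scaling of a library drops out. MT-ND1 took 2.56%, 2.62% and 2.45% of these counts with DMSO and 3.33%, 3.34% and 3.76% with abemaciclib. MT-CYB took 5.02%, 4.95% and 4.93% with DMSO and 3.69%, 3.83% and 3.96% with abemaciclib. The ratio of MT-CYB to MT-ND1 counts was thus 1.96, 1.89 and 2.02 in the DMSO libraries and 1.11, 1.15 and 1.05 with abemaciclib. These genes had the lowest and the highest log2 change of the plus-strand mRNAs in the same libraries. A gap between the groups in their ratio follows from that choice and is no separate result. The counts of MT-ND1 are also uncertain, since it shares stretches with nuclear copies (below). The shares of MT-ND2, MT-CO1 and MT-CO3 were higher, and those of MT-ATP8, MT-ND4L and MT-ND6 lower, in every abemaciclib library than in every DMSO library. MT-ATP8 took 11.7% ± 0.2 with DMSO and 11.0% ± 0.1 with abemaciclib, and MT-CO3 took 13.1% ± 0.1 and 14.7% ± 0.9 (SD, n = 3 in each group). The shares of MT-CO2, MT-ATP6, MT-ND3, MT-ND4 and MT-ND5 overlapped between the groups. All shares are parts of the same total, so that a rise in some goes with a fall in others. Among all genes tested, 39.1% did not overlap between the groups in CPM.

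Along the plus strand, the log2 changes of the mRNAs were highest at MT-ND1, near the promoters, and lowest at MT-CYB, at the far end. From MT-CO2 to MT-ND5 they followed no steady order (−0.07, −0.11, −0.06, 0.15, −0.01, −0.17, 0.01 and −0.17). MT-ND1, MT-ND2 and MT-CO1, at the start of the order, share stretches with nuclear copies (below), and their counts are uncertain. The pattern was seen after the values were known and is given as a description. Over the 12 plus-strand mRNAs, Spearman's rho between the place in the order and the log2 fold change was −0.74, between −0.83 and −0.66 with each gene left out, and −0.55 over the 10 genes without MT-ND1 and MT-CYB. Without abemaciclib replicate 3 it was −0.66. Within single libraries, set against the mean of the DMSO libraries, rho was −0.67, −0.59 and −0.72 with abemaciclib, and 0.06, −0.13 and 0.02 for each DMSO library against the mean of the other 2. The 12 points share their libraries, their precursor and in part their mRNA, and the abemaciclib values share the DMSO libraries, so no test was made.

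**Figure D4:**
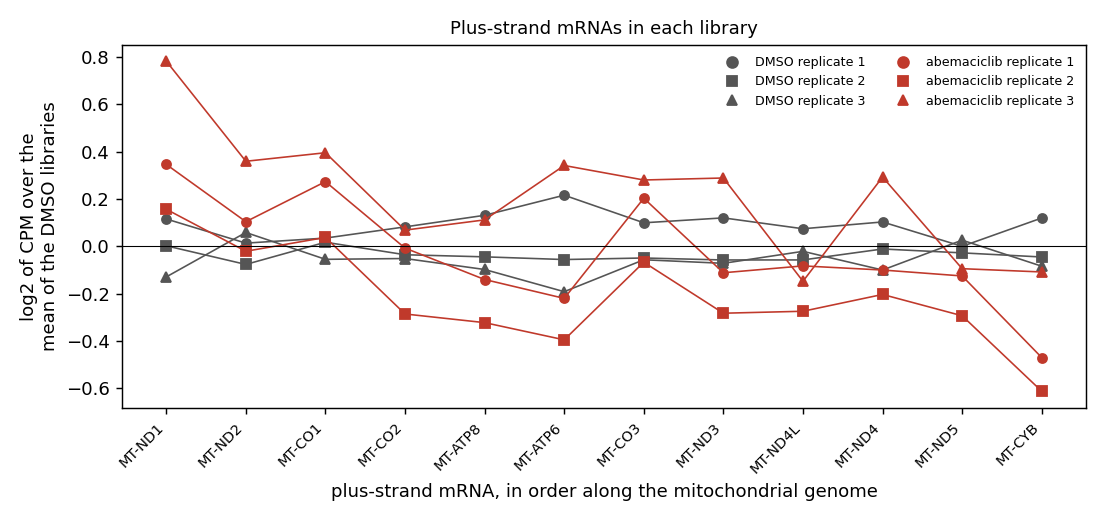
Log2 of the CPM in each library over the mean of the DMSO libraries (y axis) for the 12 plus-strand mRNAs in genome order (x axis), 1 line per library. The 3 abemaciclib lines start highest at MT-ND1 (0.16 to 0.78) and end low at MT-CYB (−0.61 to −0.11), with replicate 3 above the other 2 at most genes, and the DMSO lines run closer to 0.

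Set against each other, the ratio of counts on the mRNAs to counts on the rRNAs overlapped between the groups, through abemaciclib replicate 3 alone. The kit primes on poly(A), and how well it captured each kind of RNA was not measured. The ratios below are therefore ratios of counts and not of RNA amounts. The 13 mRNAs took 7.53%, 6.94% and 6.67% of all counts in the DMSO libraries and 6.77%, 6.04% and 7.96% with abemaciclib. The 2 rRNAs took 8.86%, 8.44% and 9.18% with DMSO and 9.52%, 9.46% and 10.1% with abemaciclib, each abemaciclib library above each DMSO library. The ratio of summed mRNA to summed rRNA counts was 0.850, 0.822 and 0.726 with DMSO and 0.711, 0.639 and 0.792 with abemaciclib. Abemaciclib replicate 3 thus lay within the DMSO range, and the other 2 abemaciclib libraries lay under every DMSO library. On the log2 scale the ratio was −0.33 ± 0.12 and −0.49 ± 0.15 (SD, n = 3), a difference of −0.17, or −0.24 without abemaciclib replicate 3. With MT-RNR1 alone in place of both rRNAs, of whose counts it held the smaller part, the difference was −0.01. All 37 genes together took 16.1% ± 0.5 of the counts with DMSO and 16.9% ± 1.3 with abemaciclib (SD, n = 3), with the groups overlapping, from 15.6% to 16.6% and from 15.8% to 18.3%. The summed tRNAs took 0.196% ± 0.017 and 0.293% ± 0.039 (SD, n = 3). The plus-strand tRNAs other than MT-TF held 1559 to 1856 counts with DMSO and 1190 to 2006 with abemaciclib.

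**Figure D5:**
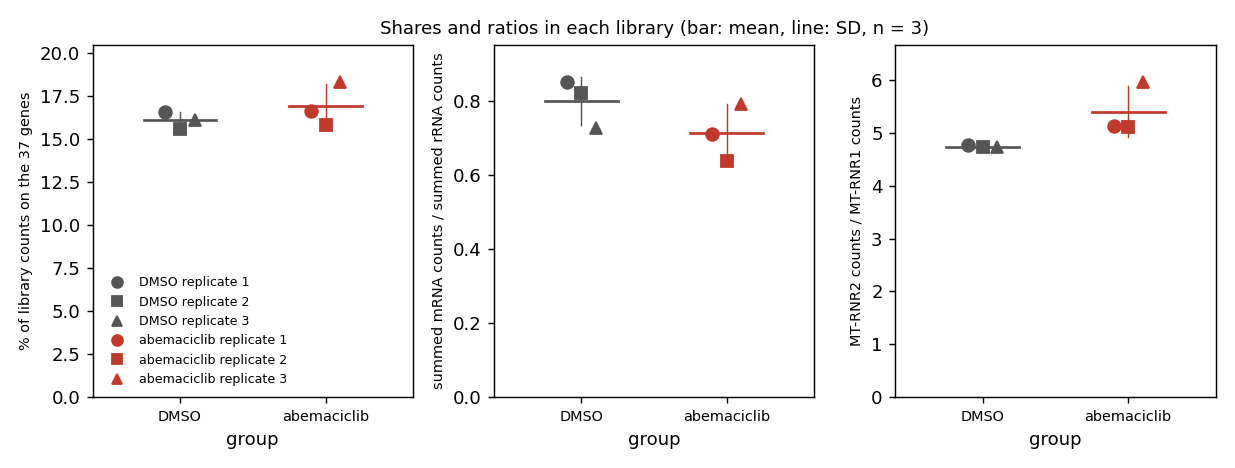
Percent of library counts on the 37 mitochondrial genes (left), summed mRNA over summed rRNA counts (middle) and MT-RNR2 over MT-RNR1 counts (right) in each library of the 2 groups, with bars for the mean and lines for the SD (n = 3). The groups overlap in the first pair of panels, and in the third the abemaciclib libraries, at 5.11 to 5.95, lie above the DMSO libraries, at 4.72 to 4.76.

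Nuclear copies of mitochondrial DNA can share reads with these genes. The table holds 404 rows named as such copies, of which 45 had a count, and together they held 3431 to 4960 counts in a library, 0.632% to 0.712% of the counts on the mitochondrial genes. The most counted were MTATP6P1, MTCO1P12, MTND2P28, MTND1P23 and MTCO2P12, which lie side by side on chromosome 1 of GRCh38 from 629062 to 634376. MTCO1P12 and MTND1P23 were higher with abemaciclib, with log2 fold changes of 0.43 and 0.41. Among stretches of 100 bases, the length of a read, 27.9% of those in MT-CO1, 26.1% in MT-ND2, 11.9% in MT-ATP6 and 11.0% in MT-ND1 were identical in an annotated copy, as were 90.3% of those covering MT-TK. The counts of these genes are therefore uncertain. For MT-TF, MT-ND6, MT-CYB, MT-RNR1, MT-RNR2 and the minus-strand tRNAs other than MT-TS1 (21.9%), no stretch was identical in a searched copy. The search covered only copies named for mRNAs and rRNAs, each with 100 bases on either side. Nuclear stretches that match tRNA genes were thus searched only in part. For the tRNAs, the result therefore does not show that no nuclear copy shares their reads.

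The nuclear genes that transcribe, process and maintain mitochondrial DNA are described from a list of 65. Of these, 60 were tested, and 1 was higher (1.67%) and 4 were lower (6.67%), beside 12.5% and 13.3% of all genes, with a median log2 fold change of 0.05. None of the 8 tested genes of mitochondrial transcription passed the threshold by edgeR, 0 by DESeq2, and 0 at an unadjusted p under 0.05. Most of the 8 had few counts in a library (TEFM 9 to 21 and POLRMT 33 to 101, though TFAM 255 to 345). Their tests thus do not show that the genes were unchanged. TFAM, which packages the genome and starts transcription, was at 86.1 ± 6.0 CPM with DMSO and 83.8 ± 6.1 CPM with abemaciclib (SD, n = 3). POLRMT, the polymerase, had a log2 change of 0.44 (s.e. 0.27), TFB2M, its initiation factor, 0.43 (0.26), and TEFM, its elongation factor, −0.04 (0.48). Of 22 genes of RNA processing, polyadenylation and decay, 0 passed the threshold by edgeR and 0 by DESeq2, and 2 were under 0.05 at an unadjusted p (PDE12 and TRMU, named after their values were seen). LRPPRC and SLIRP, which together stabilize the mRNAs, had log2 fold changes of −0.01 and 0.15, and MTPAP, the poly(A) polymerase, −0.03. In the replication group, SSBP1, the single-stranded DNA-binding protein, fell from 194.7 ± 12.2 to 135.5 ± 4.5 CPM (SD, n = 3), or by 0.52 in log2 terms (adjusted p = 0.000382), and PRIMPOL, a primase-polymerase, fell by 0.88 (adjusted p = 0.0462). The call of PRIMPOL was lost in 8 of 13 alternative fits, DESeq2 (adjusted p = 0.118) and all single omissions but that of abemaciclib replicate 2 among them. TWNK, the helicase, and POLG, the DNA polymerase, did not pass the test, at 0.53 (s.e. 0.22) and −0.51 (0.27). In the group listed under rRNA modification and ribosome assembly, TRUB2 rose by 0.53 and RPUSD3 fell by 0.67 on the log2 scale. Both are pseudouridine synthases, and which RNAs they modify was not examined. TRUB2 lost its call without DMSO replicate 1 (adjusted p = 0.0616), and RPUSD3 without DMSO replicate 3 (adjusted p = 0.0677). GABPB1, a subunit of the transcription factor that drives many nuclear genes for mitochondria, fell by 1.03 (adjusted p = 0.00135), and PPARGC1A had 0 counts in every library. Without abemaciclib replicate 3, 5 genes of the list were higher, where 1412 of all 11218 genes tested in that fit were higher.

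The nuclear partners of the mitochondrial products were mixed. Of 78 nuclear-encoded respiratory chain genes tested, 13 were higher (16.7%, beside 12.5% of all genes) and 6 lower (7.69%, beside 13.3%), with a median log2 fold change of 0.04. The largest rises were those of UQCR11 (complex III, 0.68), NDUFA2 and NDUFA10 (complex I, 0.60 and 0.56), COX6C (complex IV, 0.43) and SDHC (complex II, 0.39), and the falls of NDUFS4, NDUFS6, NDUFB9, NDUFS7 and CYC1 were between −0.56 and −0.37. UQCR11, NDUFA2, NDUFA10, NDUFS6 and NDUFB9 kept their calls in all 13 alternative fits, and COX6C lost it in 5 and SDHC, NDUFS4, NDUFS7 and CYC1 in 3 each, every one of these 5 without DMSO replicate 3. COX6C and SDHC also lost it without abemaciclib replicate 3. With DESeq2, COX6C, NDUFS4 and NDUFS7 lost it (adjusted p = 0.322, 0.0513 and 0.0520). The groups of COX6C overlapped in CPM. Without abemaciclib replicate 3, 14 genes of the list were lower and its median was −0.04. In that fit, 1529 of all 11218 genes tested were lower. Of 73 mitochondrial ribosomal protein genes tested, 3 were higher (4.11%, beside 12.5% of all genes) and 11 lower (15.1%, near the 13.3% of all genes), with a median of −0.10. MRPS25, MRPS2 and MRPS23 of the small subunit rose (0.96, 0.48 and 0.47), and MRPL39, MRPL48, MRPL22 and MRPL11 of the large subunit fell most, from −0.89 to −0.61, followed by MRPS18C of the small subunit (−0.54). MRPS25, MRPS23, MRPL22 and MRPL11 kept their calls in all 13 alternative fits, where MRPL39 lost it in 5, MRPS18C in 4, and MRPS2 and MRPL48 in 2 each.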

How the data were processed

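Expression was profiled in 6 libraries made with a 3′ mRNA kit, whose read direction the labels and the methods name differently. Single-end reads of 100 bases were trimmed, placed on hg38 by STAR and assigned to GENCODE genes by featureCounts, and the deposited values are the authors' raw counts. Settings for strand and for reads with several matches are not given in the sources used here.

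Groups were compared without a covariate using edgeR 4.0.16 under R 4.3.3, with genes kept by filterByExpr, TMM scaling and quasi-likelihood F tests, and p-values were adjusted by Benjamini–Hochberg over 10863 genes (threshold 0.05). A standard error is the size of the log2 change over the square root of F. CPM are TMM-scaled and not divided by length, as the kit reads 3′ ends. Sums, shares and ratios use unscaled counts and have no test. The members and lists were chosen with earlier results of these data known. Named were all mRNAs, rRNAs and counted tRNAs, and core and called machinery genes. In the other 2 lists, up to 5 called genes each way were named, by the size of the log2 change. Symbols matched 60401 of 60656 identifiers, and places are from GENCODE on GRCh38. The fitting was tested on simulated data. Alternatives were DESeq2 1.42.0, other scalings and filters, a replicate block and the omission of single libraries.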

Additional observations from a re-analysis of the deposited data

How the results depend on the processing

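Of 186 summary values recomputed under alternatives, 158 kept their direction and size, as did 412 of 464 fold changes and shares of single mitochondrial genes. The number of mitochondrial genes higher, 4, was 2 with DESeq2 and 2 with a replicate block, and with single libraries omitted it was 2 to 5, and the number lower, 7, was 6 to 11. The numbers shared by the replicates did not pair the libraries (correlations of same-numbered deviations −0.0893 to 0.00705), so the block is given here only. With MT-RNR1 as the sole rRNA, the mRNA to rRNA difference was −0.011. With single libraries omitted, the machinery list had 0 to 5 higher, 2 to 4 lower and a median from −0.021 to 0.12, the respiratory chain list 7 to 13 higher, 3 to 14 lower and a median from −0.042 to 0.087, and the ribosomal protein list 2 to 5 higher, 6 to 13 lower and a median from −0.11 to −0.075. Uncalled genes near 0 changed sign. These were MT-RNR1 (0.00042 with DESeq2), MT-ND4 (−0.0058 with library totals and −0.0013 with the block) and, over single omissions, MT-RNR1 (−0.048 to 0.027), MT-CO2 (−0.14 to 0.034), MT-ATP6 (−0.30 to 0.091), MT-ND3 (−0.19 to 0.11), MT-ND4 (−0.15 to 0.11), MT-TS2 (−0.28 to 0.21) and MT-TT (−0.27 to 0.029). The causes were not tested. Depth limits the tRNAs, of which 8 had too few counts for a test.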
